A study of Homo sapiens with 5 samples.

Results

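The collagen, laminin and integrin chains are described here: the proteins of 3 gene families that form the fibres and sheets around cells and the receptors that hold cells to them. Their members are the protein-coding genes of the deposited count table whose symbols begin with COL, a number, A and a number, with LAMA, LAMB or LAMC and a number, or with ITGA or ITGB and a number or letter. The rule found 49 of the 16677 genes of the table: 21 collagen chains, 10 laminin chains and 18 integrin chains. Every one of the 49 had enough counts to be tested.

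Messenger RNA was sequenced in HEK293, an established line of human embryonic kidney cells, kept in basal culture. The 2 Control libraries have the wild-type genotype. The 3 rs11607019 libraries, called variant 1, 2 and 3 below, carry the T-to-C change of that single-nucleotide variant, which the series places in SIRT3, the gene of a mitochondrial deacetylase. The sources used here do not say how the variant was made, or whether the libraries of a group came from separate clones, separate cultures or 1 culture, so a p-value measures only the spread between these libraries, which may be technical.

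A collagen molecule is a triple helix of alpha chains. Fibrillar collagens assemble into rope-like fibres, the fibril-associated kinds decorate those fibres, and type IV collagen forms the network of basement membranes. A laminin is a cross-shaped trimer of an alpha, a beta and a gamma chain that polymerises on the cell surface and anchors the basement membrane to cells. An integrin is a receptor of an alpha and a beta chain that spans the plasma membrane, binds collagen, laminin or fibronectin outside and links to actin inside. HEK293 cells resemble early kidney and neural epithelium rather than fibroblasts, and epithelia of that kind lay down basement membrane.

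Library totals lay between 17122569 and 17596084 counts, and the factors of the trimmed mean of M-values (TMM) normalisation between 0.983 and 1.01. Of 12 markers chosen for HEK293, 8 were in the table, with summed levels of 853 to 1253 CPM (the TMM-scaled count relative to the library's total) in Control and 1009 to 1312 CPM in the variant. Endothelial and blood markers had 0 of 8 and 0 of 10 genes in the table, and fibroblast markers 2 of 10, FBLN1 and S100A4, which summed to 53.3 to 86.2 CPM in Control and 87.5 to 131 CPM in the variant. Most of that sum was FBLN1, at 48.9 and 83.8 CPM in Control and 83.2, 99.0 and 128 CPM in the variant. S100A4 stood at 4.37 and 2.45 CPM in Control and 4.33, 2.53 and 3.78 CPM in the variant. The groups overlapped at both genes. The gene of the series, SIRT3, stood at 28.9 and 29.3 CPM in Control and at 26.5, 15.8 and 30.2 CPM in the variant, a log2 fold change of -0.27 (SE 0.26; edgeR adjusted p = 0.815).

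Sequences upstream of 3 collagen genes with higher levels in all 3 variant libraries, and of the pair COL4A5 and COL4A6, which are read in opposite directions from a shared stretch, show what kind of start these chains have. They are from RefSeq on GRCh38.p14, in which 34 of the 49 chains had an entry, and are printed 5′ to 3′ on the strand of the gene, leaving out annotated exon bases. Capitals mark matches on either strand to the GC box GGGCGG, the CCAAT box CCAAT, the TATA box TATAAA or the TEAD site GGAATG; an AP-1 site, TGANTCA, was also searched. These are COL12A1, chr6:75206054-75206303, reverse strand; COL5A1, chr9:134641553-134641773, forward strand; COL7A1, chr3:48595330-48595579, reverse strand; and COL4A5 with COL4A6, chrX:108439588-108439837, forward strand of COL4A5.
COL12A1: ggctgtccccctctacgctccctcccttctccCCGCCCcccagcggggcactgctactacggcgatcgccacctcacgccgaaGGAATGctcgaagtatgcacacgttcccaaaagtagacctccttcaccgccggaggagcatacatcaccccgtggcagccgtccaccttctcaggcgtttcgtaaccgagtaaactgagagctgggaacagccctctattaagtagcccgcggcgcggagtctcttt
COL5A1: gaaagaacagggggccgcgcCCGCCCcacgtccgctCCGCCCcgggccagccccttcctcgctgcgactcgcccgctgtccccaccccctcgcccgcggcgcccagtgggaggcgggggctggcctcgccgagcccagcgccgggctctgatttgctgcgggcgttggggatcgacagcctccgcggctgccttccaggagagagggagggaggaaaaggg
COL7A1: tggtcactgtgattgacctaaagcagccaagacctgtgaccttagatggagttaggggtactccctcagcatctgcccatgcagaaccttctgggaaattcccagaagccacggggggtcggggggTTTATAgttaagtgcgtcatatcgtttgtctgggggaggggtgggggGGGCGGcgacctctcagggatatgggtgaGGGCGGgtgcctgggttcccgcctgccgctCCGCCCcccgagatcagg
COL4A5: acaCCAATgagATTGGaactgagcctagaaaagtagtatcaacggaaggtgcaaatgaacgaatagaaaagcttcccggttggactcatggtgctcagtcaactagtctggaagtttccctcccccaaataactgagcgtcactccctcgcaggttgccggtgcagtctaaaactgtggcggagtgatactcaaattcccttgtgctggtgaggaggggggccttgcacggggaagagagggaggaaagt
The COL12A1 stretch holds 1 GC box and 1 TEAD site, with a G+C content of 61.2%. COL5A1 has 2 GC boxes in a stretch of 75.6% G+C, and COL7A1 has 3 GC boxes and 1 TATA box. The printed stretch before COL4A5 has 2 CCAAT boxes on opposite strands that do not overlap, and no GC box. The annotated starts of COL4A6 and COL4A5 are 346 bases apart, and the bases nearest COL4A6 are not in that stretch. For the shares, exon bases were kept, and the 34 chains have 47 windows of 250 bases before a start. A GC box was found in 29 of them (61.7%), and in 42.6% of the 35093 windows of all genes. An AP-1 site was found in 2 of the 47 (6.57% of all windows), a CCAAT box in 8 (32.0%), a TATA box in 6 (10.7%) and a TEAD site in 6 (11.9%). A match is a string of letters, and no binding was measured here.

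How the chains differed between the genotypes is the comparison that the labels give. In the quasi-likelihood test of edgeR with Benjamini-Hochberg adjustment, 0 chains passed an adjusted p of 0.05, and the share over all 16310 tested genes was 0%. At an unadjusted p under 0.05 there were 8 chains (16.3%), all with the higher level in the variant: COL12A1, COL5A1, LAMC3, COL27A1, COL7A1, COL2A1, ITGA3 and LAMB2. The share over all tested genes was 7.62%, with 4.11% higher and 3.51% lower. The 2 groups did not overlap at 14 chains (28.6%), all higher in the variant, against 24.8% of all tested genes, of which 11.8% were higher and 13.0% lower. In the Wald test of DESeq2, 2 chains, COL12A1 and COL5A1, had an adjusted p under 0.05, where 0.213% of 15045 genes did. In bulk RNA, fewer cells with a transcript and less transcript per cell cannot be told apart.

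G+C content and transcript length moved with these counts. The median G+C content of the chains' exons was 54.6%, against 48.6% for all genes with a value. Across 10854 genes, which are not independent, the Spearman correlation of G+C content with a library's deviation from the mean of all 5 was -0.530 and 0.0675 for Control 1 and 2, and -0.122, 0.243 and 0.469 for variant 1, 2 and 3. The longest transcript had a median of 6133 bases for the chains and 3118 for all genes. For its length the same correlation was 0.0342 and -0.279 for Control 1 and 2. For variant 1, 2 and 3 it was 0.366, 0.114 and -0.286. The separate parts of G+C content and length were not tested. With a correction of each library for G+C content and transcript length, edgeR gave 4 chains an unadjusted p under 0.05, 3 of them higher (COL12A1, COL5A1 and LAMC3) and 1 lower (COL9A2). That is 8.16% of the chains, beside 6.39% of 16180 genes, and the median log2 fold change of the 49 chains was 0.06 with the correction and 0.18 without it. Leaving out Control 1, the library with the strongest relation, left 5 chains higher and 1 lower at an unadjusted p under 0.05, where 2.15% of all genes were higher and 1.19% lower.

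**Figure D1:**
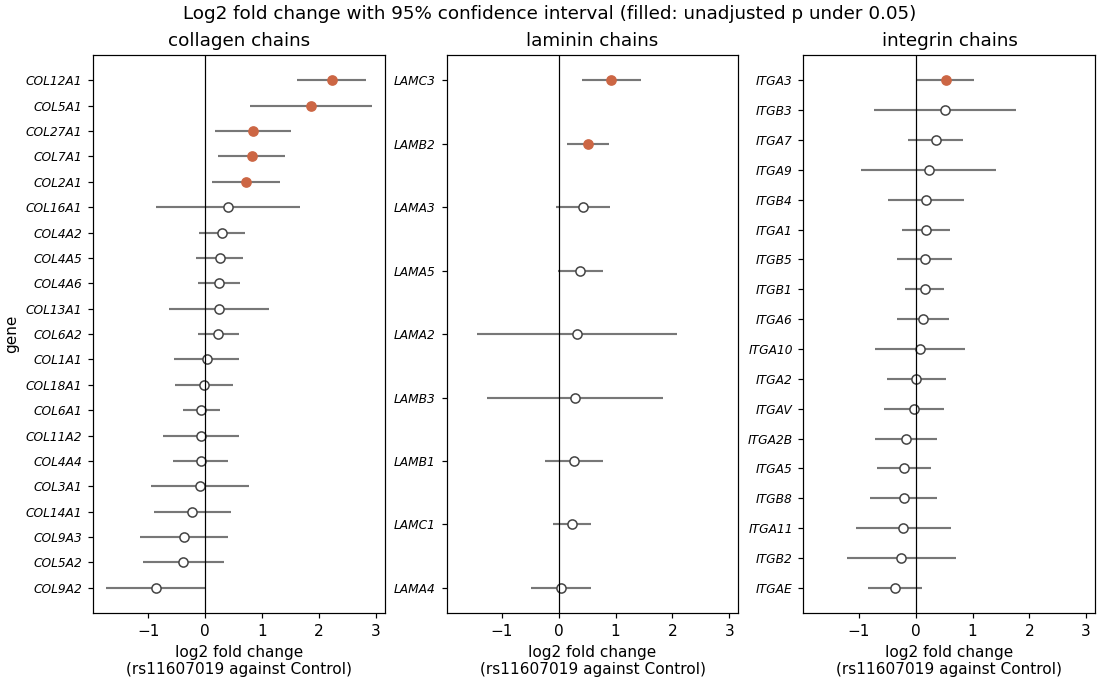
Log2 fold change of rs11607019 against Control (x axis) for collagen, laminin and integrin chains (y axis), with lines for the 95% confidence interval of the edgeR fit on 2 and 3 libraries. The 8 filled points, with an unadjusted p under 0.05, all lie to the right of 0, led by COL12A1 at 2.23.

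The collagens had the widest spread of the 3 families. Their log2 fold changes ran from -0.86 to 2.23 with a median of 0.23; 12 were above 0 and 9 below, 5 had an unadjusted p under 0.05 and 7 had groups that did not overlap. Those with an unadjusted p under 0.05 made up 23.8% of the collagens, beside 7.62% of all tested genes. Those without overlap made up 33.3%, beside 24.8%. The median over all tested genes was 0.00300. The collagen median was 0.07 without Control 2, 0.10 without variant 2, 0.07 without variant 3 and 0.04 with the G+C and length correction. Collagen transcripts summed to 120 and 125 RPKM (CPM per kilobase of merged exons) in Control and to 132, 148 and 140 RPKM in the variant, so the variant libraries were the higher 3 of 5 (122 ± 3.51, SD, n = 2, against 140 ± 8.30, n = 3).

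COL12A1 (ENSG00000111799, chromosome 6, 75084326 to 75206051 in GENCODE 29 on GRCh38) encodes the chain of type XII collagen, a fibril-associated homotrimer found on the surface of collagen I fibres. It stood at 9.68 and 16.6 CPM in Control and at 71.8, 61.7 and 50.9 CPM in the variant. Every variant library was above both Control libraries. The group means were 13.1 ± 4.89 CPM (SD, n = 2) and 61.5 ± 10.4 CPM (SD, n = 3). That is a log2 fold change of 2.23 (SE 0.27, 95% confidence interval 1.62 to 2.83), with the smallest p of the table in edgeR (adjusted p = 0.0999; DESeq2 adjusted p = 3.18e-12). COL12A1 was chosen with this result known, so its p is a description. Without variant 3 the edgeR adjusted p was 0.0163, at a log2 fold change of 2.34.

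COL12A1 counts were 166 and 291 in Control and 1242, 1075 and 902 in the variant. Of all collagen counts in a library, COL12A1 made up 0.971% (95% Wilson interval 0.834 to 1.13%) and 1.54% (1.37 to 1.73%) in Control. In the variant it made up 6.15% (5.83 to 6.49%), 4.83% (4.55 to 5.12%) and 3.95% (3.70 to 4.21%). None of these intervals overlap, and they cover counting error only. The 5 tested genes on either side of COL12A1 had a median log2 fold change of -0.03 and ranged from -0.58 to 0.17, so each of the 10 was below COL12A1. Its G+C content, 46.3%, is below the median of the chains, and the corrected log2 fold change was 2.08 (edgeR unadjusted p = 1.52e-05, adjusted p = 0.174).

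**Figure D2:**
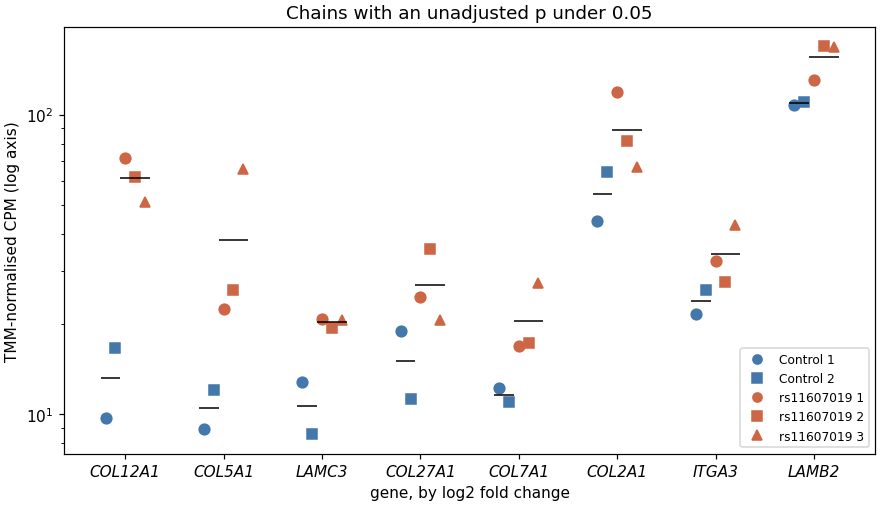
TMM-normalised CPM on a log axis (y) for the 8 chains with an unadjusted p under 0.05 (x, by log2 fold change); each point is a library, blue for Control and orange for rs11607019, and the bars are group means. The orange points lie above the blue points of the same gene in all 8, and COL5A1 spreads most, with variant 3 at 65.6 CPM.

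Of the other 4 fibril-associated chains, 3 lay below 0 and COL16A1, the lowest collagen in level, above it at 0.39 (SE 0.56). COL9A2, a chain of the type IX collagen of cartilage fibres, stood at 5.77 and 7.76 CPM in Control and at 2.25, 5.80 and 3.11 CPM in the variant, a log2 fold change of -0.86 (SE 0.39). Variant 2 was just above Control 1 and the other variant libraries were lower, so the groups overlapped. COL9A2 had the lowest log2 fold change of the 49 chains; its edgeR unadjusted p was 0.0546 as fitted and 0.0221 with the G+C and length correction, at a corrected log2 fold change of -1.02. COL9A3, its partner, had a log2 fold change of -0.37 and COL14A1, another binder of collagen I fibres, -0.23, both with overlapping groups.

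Of the 7 fibrillar chains, 4 were above 0 and 3 below. COL5A1 (ENSG00000130635, chromosome 9, 134641774 to 134844843) encodes the alpha 1 chain of type V collagen, which sets the diameter of collagen I fibrils. It stood at 8.92 and 12.0 CPM in Control and at 22.4, 25.9 and 65.6 CPM in the variant. All variant libraries were above both Control libraries, and variant 3 stood well apart from the other two. Its log2 fold change was 1.86 (SE 0.47; edgeR adjusted p = 0.616, DESeq2 adjusted p = 0.00935), and 1.21 without variant 3.

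COL5A2 encodes the alpha 2 chain of the same collagen and lay on the other side of 0. It stood at 5.07 and 6.39 CPM in Control and 3.12, 5.57 and 4.46 CPM in the variant, a log2 fold change of -0.39 (SE 0.32) with overlapping groups. Per length, the ratio of COL5A1 to COL5A2 was 1.17 and 1.25 in Control and 4.79, 3.10 and 9.80 in the variant. The ratio was higher in each variant library than in either Control, a difference that was not tested.

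COL2A1 (ENSG00000139219, chromosome 12, 47972965 to 48004554), the chain of the type II collagen of cartilage, stood at 44.1 and 64.2 CPM in Control and at 119, 81.9 and 66.6 CPM in the variant. The groups did not overlap, but variant 3 was only just above Control 2. The fitted log2 fold change was 0.72 (SE 0.26; edgeR unadjusted p = 0.0223, adjusted p = 0.616), and 0.46 without variant 1. COL27A1 (ENSG00000196739, chromosome 9, 114155560 to 114312511), a fibrillar chain of developing cartilage, stood at 18.9 and 11.2 CPM in Control and 24.7, 35.6 and 20.6 CPM in the variant. Its lowest variant library was close to Control 1, and the log2 fold change was 0.84 (SE 0.30), or 0.51 without Control 2. COL1A1, the main chain of type I collagen, overlapped fully between the groups, with 28.4 and 46.3 CPM in Control, 28.7, 40.3 and 45.0 CPM in the variant and a log2 fold change of 0.02 (SE 0.26). The partner chain COL1A2 was not among the chains that the rule found in the count table.

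COL7A1 (ENSG00000114270, chromosome 3, 48564073 to 48595267) encodes the chain of the anchoring fibrils that tie basement membrane to the tissue below. It stood at 12.2 and 10.9 CPM in Control and at 16.9, 17.2 and 27.3 CPM in the variant. All variant libraries were higher, 2 of them close together. Its log2 fold change was 0.82 (SE 0.26; edgeR unadjusted p = 0.0115). Its 10 neighbours had a median of 0.26.

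COL5A1, COL27A1 and LAMC3 all lie on chromosome 9, whose 662 tested genes had a median log2 fold change of 0.35. Relative to that median their log2 fold changes were 1.51, 0.49 and 0.58. Among the 10 nearest tested genes, the median was 0.46 around COL5A1, 0.35 around COL27A1 and 0.36 around LAMC3, and 0, 2 and 2 of those neighbours were above the gene itself. The part of the chromosome median in these differences was not tested. Chromosome 6, with COL12A1, had a median of 0.12.

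Of the 4 tested chains of type IV collagen, 3 lay above 0 and 1 below, with a median log2 fold change of 0.25. At an unadjusted p under 0.05 there were 0. COL4A2, a chain of the common type IV network, stood at 241 and 306 CPM in Control and 319, 287 and 404 CPM in the variant, a log2 fold change of 0.30 (SE 0.18) with overlapping groups. COL4A5 stood at 66.0 and 70.2 CPM in Control and at 70.8, 98.3 and 74.8 CPM in the variant. COL4A6 stood at 46.8 and 51.9 CPM in Control and at 56.2, 64.4 and 54.1 CPM in the variant. For both, every variant library was above both Controls, with variant 2 the highest, and the log2 fold changes were 0.25 and 0.24 (edgeR unadjusted p = 0.198 and 0.183). Their ratio per length was 1.10 and 1.06 in Control and 0.986, 1.19 and 1.08 in the variant, near 1 in all 5 libraries. COL4A4 had a log2 fold change of -0.08 with overlapping groups. Its partner COL4A3, and COL4A1, were not among the chains that the rule found in the count table.

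COL6A1 and COL6A2, chains of the beaded filaments that lie next to basement membranes, had the highest levels per kilobase of merged exons among the collagens, with means over all libraries of 36.8 and 19.4 RPKM. With the length of the longest transcript instead, COL4A2 came first with 48.0 RPKM, COL6A1 second with 46.4 and COL6A2 next with 30.2. COL6A1 stood at 213 and 191 CPM in Control and 176, 212 and 190 CPM in the variant, a log2 fold change of -0.07 (SE 0.15, 95% confidence interval -0.40 to 0.26). COL6A2 had a log2 fold change of 0.23 (SE 0.16). COL4A2 (16.1 RPKM), COL2A1 (11.3) and COL18A1 (10.6), the source of endostatin, came next. Between COL2A1 and COL18A1 the difference was smaller than the spread over libraries (SD 4.20 and 2.24 RPKM). COL12A1 was the tenth of 21 with 3.38 RPKM, and COL16A1 the lowest with 0.0890 RPKM.

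The laminins were higher in the variant at 9 of 10 chains, with LAMC3 the highest at a log2 fold change of 0.92 and a family median of 0.30. That direction held for 50.5% of all tested genes. The groups did not overlap at 5 laminins (50%, beside 24.8% of all tested genes), all higher. At an unadjusted p under 0.05 there were 2 (20%, beside 7.62%). Summed laminin transcripts stood at 95.3 and 118 RPKM in Control and 146, 122 and 125 RPKM in the variant. Control 1 was the lowest of the 5 libraries at 9 of the 10 laminins, where it was the lowest at 22.1% of all tested genes, and variant 1 was the highest at 6. The laminin median was 0.12 without Control 1, 0.17 without variant 1, 0.52 without Control 2 and 0.15 with the G+C and length correction.

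**Figure D3:**
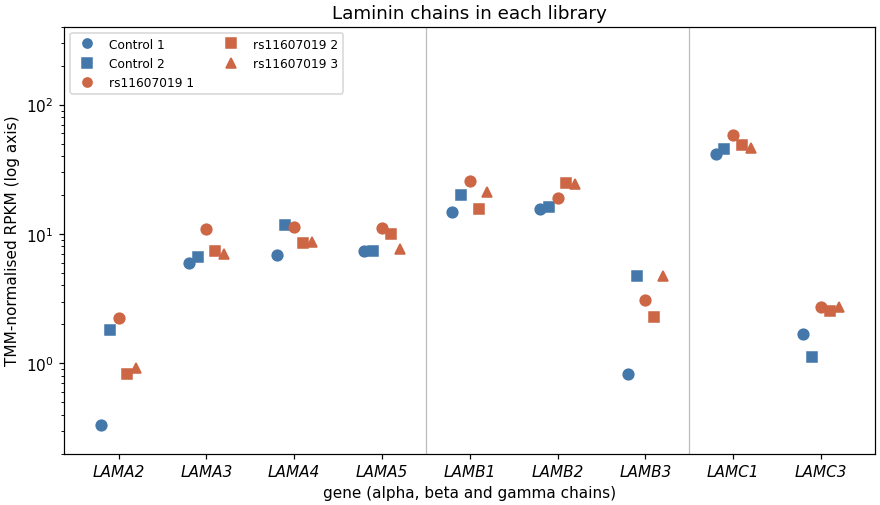
TMM-normalised RPKM on a log axis (y) of 9 laminin chains (x, grouped as alpha, beta and gamma) in each library, blue for Control and orange for rs11607019. LAMC1 was the highest chain in all 5 libraries, and the low blue circles at LAMA2 and LAMB3 are Control 1.

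LAMC1, the gamma 1 chain of most laminins, had 48.1 RPKM over all libraries, the highest of the 49 chains by merged exon length. By longest transcript it had 51.3 RPKM and ITGB1, at 53.3, was above it. It stood at 348 and 382 CPM in Control and 491, 412 and 389 CPM in the variant. The groups did not overlap, though variant 3 exceeded Control 2 by little, and the log2 fold change was 0.24 (SE 0.15). LAMB2 and LAMB1, with 19.98 and 19.37 RPKM, followed and did not differ beyond their spread (SD 4.36 and 4.51 RPKM). Summed, these beta chains were close to LAMC1 in amount: the ratio of LAMC1 to their sum was 1.36 and 1.26 in Control and 1.30, 1.22 and 1.02 in the variant.

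LAMB2 (ENSG00000172037, chromosome 3, 49121114 to 49133118) encodes the beta 2 chain, typical of the kidney filter and the neuromuscular junction. It stood at 107.6 and 110.5 CPM in Control and at 131, 169 and 168 CPM in the variant. The Control libraries were nearly equal and all variant libraries were higher. Its log2 fold change was 0.52 (SE 0.16; edgeR unadjusted p = 0.0113, adjusted p = 0.616), and 0.32 with the G+C and length correction. Some of its reads could be shared with the pseudogene LAMB2P1, which had 17 to 32 counts. LAMB1, of the embryonic laminins, stood at 120 and 162 CPM in Control and 210, 126 and 171 CPM in the variant, with overlapping groups.

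LAMC3 (ENSG00000050555, chromosome 9, 131009082 to 131094473) encodes the gamma 3 chain. It stood at 12.8 and 8.55 CPM in Control and at 20.7, 19.4 and 20.6 CPM in the variant. The variant libraries were close together, 20.2 ± 0.722 CPM (SD, n = 3), and above both Controls. This gave a log2 fold change of 0.92 (SE 0.23, 95% confidence interval 0.40 to 1.45; edgeR unadjusted p = 0.00286, adjusted p = 0.616). With the G+C and length correction it was 0.68 (unadjusted p = 0.0171).

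All 4 alpha chains of laminin had log2 fold changes above 0. LAMA5, the alpha chain of laminins in mature epithelial basement membranes, stood at 105 and 106 CPM in Control and 158, 143 and 110 CPM in the variant. LAMA3, an alpha chain of the hemidesmosome laminin, stood at 86.7 and 96.9 CPM in Control and 161, 109 and 102 CPM in the variant. In both, variant 1 was the highest library and the groups did not overlap, and the log2 fold changes were 0.38 and 0.43 (edgeR unadjusted p = 0.0623 and 0.0701). With the G+C and length correction they were 0.05 and 0.23. Minus the medians of their chromosomes, 20 and 18, they were 0.21 and 0.27. In variant 1 the median deviation from the mean of all libraries was 0.37 for chromosome 20 and 0.19 for chromosome 18. LAMA5 stood at 0.37 and LAMA3 at 0.57 on that scale, and the part of the chromosomes was not tested. LAMA4, the alpha chain of vessel laminins, stood at 79.8 and 135 CPM in Control and 131, 99.1 and 100.3 CPM in the variant, a log2 fold change of 0.04 (SE 0.23). Its variant libraries all lay between the Controls. LAMA1, the alpha chain of the embryonic laminin, was not among the chains that the rule found in the count table.

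LAMA2 and LAMB3 differed more between the Controls than between the genotypes. LAMB3, a beta chain of the hemidesmosome laminin, stood at 3.85 and 22.0 CPM in Control and at 14.4, 10.7 and 22.1 CPM in the variant. LAMA2, the alpha chain of muscle laminin, stood at 3.44 and 18.6 CPM in Control and 23.2, 8.55 and 9.54 CPM in the variant. Control 2 was 5.72 times Control 1 at LAMB3 and 5.42 times at LAMA2. The Controls were at least 4-fold apart at 0.742% of all tested genes, and at 3 of the 49 chains. At 36 chains they were within 1.5-fold. SFN, the 1 squamous marker of 6 in the table, stood at 6.003 CPM in Control 1 and 24.01 CPM in Control 2, and at 4.99 to 11.1 CPM in the variant; its part in the result was not tested.

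**Figure D4:**
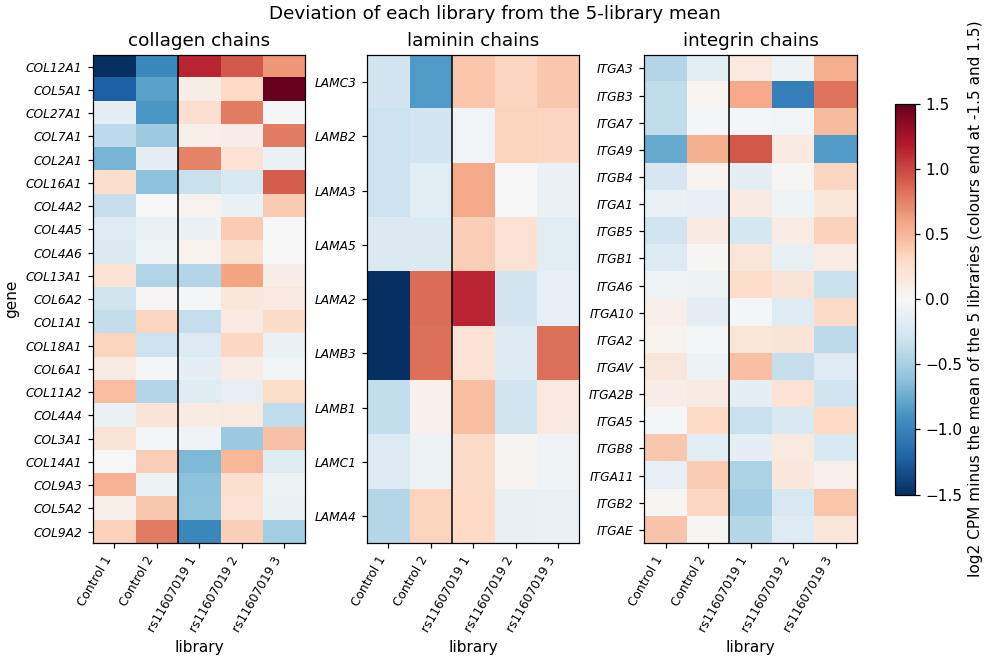
Each cell gives the log2 CPM of a chain (y) in a library (x) minus its mean over the 5 libraries, red for higher and blue for lower, with Control left of the line. Control 1 is blue at most laminins and darkest at LAMA2 and LAMB3, COL12A1 changes colour at the line, and most integrins stay pale.

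The integrins differed least between the genotypes. Their log2 fold changes ran from -0.36 to 0.53 with a median of 0.10, 11 above 0 and 7 below. The groups did not overlap at 2 of 18 chains and 1 chain had an unadjusted p under 0.05. Both shares, 11.1% and 5.56%, were below those of all tested genes. Summed integrin transcripts stood at 101 and 109 RPKM in Control and at 110, 100.2 and 116 RPKM in the variant, so the groups overlapped. The integrin median was 0.05 without Control 1, 0.05 without variant 3 and -0.01 without variant 1.

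ITGB1, the beta 1 chain that pairs with most collagen- and laminin-binding alpha chains, was the most abundant integrin per length, at 33.5 RPKM. It stood at 174 and 204 CPM in Control and at 228, 186 and 217 CPM in the variant, a log2 fold change of 0.16 (SE 0.15, 95% confidence interval -0.19 to 0.50) with overlapping groups. Some of its reads could be shared with ITGB1P1, which had 94 to 157 counts. Its level per length was 2.96 and 2.71 times the sum of the other beta chains in Control and 3.81, 2.51 and 2.46 times that sum in the variant.

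Of the alpha chains that bind laminin with ITGB1, all 3 had log2 fold changes above 0. ITGA3 (ENSG00000005884, chromosome 17, 50055968 to 50090481) stood at 21.6 and 25.9 CPM in Control and at 32.3, 27.7 and 42.7 CPM in the variant. All variant libraries were higher, with variant 2 close to Control 2 and variant 3 the highest. Its log2 fold change was 0.53 (SE 0.23; edgeR unadjusted p = 0.0431, adjusted p = 0.641), and 0.34 without variant 3. ITGA6 stood at 65.0 and 63.7 CPM in Control and 81.2, 76.6 and 53.3 CPM in the variant, and ITGA7 had a log2 fold change of 0.35 (SE 0.21). In both, a variant library lay within or below the Control values.

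Of the alpha chains that bind collagen, ITGA1 stood at 20.5 and 20.1 CPM in Control and at 23.9, 20.8 and 24.4 CPM in the variant. Its groups did not overlap, but the gap was small and the log2 fold change was 0.18 (SE 0.19; edgeR unadjusted p = 0.350). ITGA2 had a log2 fold change of 0.01 (SE 0.23), ITGA10 of 0.07 and ITGA11 of -0.22. ITGA10 and ITGA11 were near the bottom of the family, with 0.254 and 0.163 RPKM. The chains that bind fibrillar collagen were low per length here beside ITGB1, and none had an unadjusted p under 0.05.

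ITGA5, the alpha chain of the fibronectin receptor, followed ITGB1 in level with 12.9 RPKM. It stood at 94.7 and 118 CPM in Control and 76.6, 82.3 and 118 CPM in the variant, a log2 fold change of -0.20 (SE 0.21). ITGAV, whose dimers bind RGD motifs in matrix proteins, had a log2 fold change of -0.03. Of its beta partners, ITGB5 stood at 0.16, ITGB8 at -0.21 and ITGB3 at 0.52 on the same scale, all with overlapping groups. ITGB3 is low, at 0.874 and 1.20 CPM in Control and 1.79, 0.517 and 2.15 CPM in the variant, so its interval was wide (-0.74 to 1.77). ITGA6, ITGAE, ITGB5 and ITGAV lay between 10.1 and 10.4 RPKM and did not differ beyond their spread.

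ITGAE, the alpha chain of a lymphocyte receptor for E-cadherin, had the lowest log2 fold change of the family, -0.36 (SE 0.21). It stood at 90.8 and 68.2 CPM in Control and at 50.3, 59.2 and 76.4 CPM in the variant, with overlapping groups. HASPIN lies within ITGAE on the opposite strand, and whether the counts used the strand is not stated. In all, 12 chains are crossed by another gene of the table, 11 of them by a gene on the opposite strand. ITGB2, the beta chain of leukocyte integrins, was the lowest integrin at 0.157 RPKM, and had a log2 fold change of -0.25 (SE 0.43).

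Genes that make, hold or read the matrix were described with the same fit, and 0 of them passed an adjusted p of 0.05. Over all tested genes that share was 0%, and 50.5% were above 0. At an unadjusted p under 0.05, 4.11% of all tested genes were higher and 3.51% lower. Of 29 tested enzymes and chaperones of collagen, 19 were above 0 and 10 below, with a median log2 fold change of 0.09. P4HB, a subunit of the prolyl hydroxylase that stabilises the helix and the most abundant of them, stood at 0.03. At an unadjusted p under 0.05, ADAMTS2, which trims the amino end of procollagen, was higher (0.82). PLOD2, a lysyl hydroxylase that sets cross-links, and PCOLCE2, an enhancer of procollagen cleavage, were lower (-0.68 and -0.51). Together with ADAMTS2 they made up 10.3% of the list, beside 7.62% of all tested genes. PLOD2 stood at 95.2 and 89.0 CPM in Control and at 64.8, 49.4 and 58.3 CPM in the variant, with no overlap. With the G+C and length correction PLOD2 stood at -0.39, and the list held 0 higher and 2 lower. That is 6.90% of the list, near the 6.39% of all genes.

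Among 26 other matrix proteins, 22 were above 0, the median was 0.40, and 5 had an unadjusted p under 0.05, all higher in the variant. That is 19.2% of the list, beside 7.62% of all tested genes. TNC, tenascin C, a matrix protein of development and wounds, stood at 13.9 and 45.5 CPM in Control and 99.3, 92.5 and 140 CPM in the variant, a log2 fold change of 1.90 (SE 0.47), and it was 1.28 without Control 1 and 2.99 without Control 2. EMILIN2, an elastic fibre protein, followed with 1.78 (DESeq2 adjusted p = 0.00935), or 1.26 without Control 2 and 2.60 without Control 1. Next came CCN2, a secreted integrin ligand, at 1.51, THBS1, thrombospondin 1, at 0.94 and FN1, fibronectin, the ligand of ITGA5, at 0.87. FN1 stood at 293 and 360 CPM in Control and at 718, 330 and 744 CPM in the variant, so variant 2 lay between the Controls. MFGE8, the most abundant of the list per length, stood at 0.25. With the G+C and length correction 5 of the list were higher and 0 lower at an unadjusted p under 0.05. That is 19.2%, beside 6.39% of all genes, and the median was 0.27.

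Of 14 basement membrane partners, 10 were above 0 with a median of 0.17. AGRN (agrin, 0.51), BCAM (0.47) and FBLN1 (fibulin 1, 0.64) had an unadjusted p under 0.05. These made up 21.4% of the list, beside 7.62% of all tested genes. NID1, nidogen 1, which links laminin to type IV collagen and led the list in level, stood at 0.36 (edgeR unadjusted p = 0.0864). With the G+C and length correction 1 of this list was higher (7.14%, near the 6.39% of all genes), the median was 0.08 and AGRN stood at 0.20. Of 37 integrin adaptors and focal adhesion proteins, 25 were above 0 with a median of 0.10. FLNA, filamin A, which cross-links actin and binds integrin tails, stood at 1562 and 1724 CPM in Control and 2782, 3240 and 3228 CPM in the variant. Every variant library was higher, and the log2 fold change was 0.91 (SE 0.14; edgeR adjusted p = 0.271, DESeq2 adjusted p = 1.44e-04). TGFB1I1 (0.84), ACTN1 (0.63), ZYX (0.50) and TLN1, talin 1 (0.47), were also higher at an unadjusted p under 0.05. With FLNA they made up 13.5% of the list, beside 7.62% of all tested genes. With the correction FLNA stood at 0.66, and the list held 4 higher (10.8%, beside 6.39% of all genes) and 0 lower, with a median of 0.02. Minus the median of its chromosome, TLN1 (chromosome 9) stood at 0.12 and ACTN1 (chromosome 14) at 0.31.

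Of 14 proteases and inhibitors of the matrix, 12 were above 0 with a median of 0.33, and MMP24 (1.17), MMP15 (1.05) and CTSL (0.63, or 0.28 minus the median of chromosome 9) had an unadjusted p under 0.05. These genes made up 21.4% of the list, beside 7.62% of all tested genes. TIMP1, an inhibitor of matrix metalloproteinases and the most abundant of the list, stood at 0.10. With the G+C and length correction 3 of the list were higher and 0 lower at an unadjusted p under 0.05. That is 21.4%, beside 6.39% of all genes, and the median was 0.27. Of 12 receptors for collagen or laminin that are not integrins, 10 were above 0 with a median of 0.21. CD44 and BCAM had an unadjusted p under 0.05, 16.7% of the list, beside 7.62% of all tested genes. With the G+C and length correction 1 of these receptors was higher and 1 lower at that threshold. That is 16.7%, beside 6.39% of all genes, and the median was 0.15. CD44, a hyaluronan receptor, had a log2 fold change of 1.11 (SE 0.42) and stood at 3.73 and 11.6 CPM in Control and at 12.6, 16.99 and 20.2 CPM in the variant. Control 2 was close to variant 1, and Control 1 was far below the rest: without Control 1 the log2 fold change was 0.51, and without Control 2 it was 2.15. RPSA, the laminin receptor that is also a ribosomal protein, led the list in level and stood at 0.08.

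**Figure D5:**
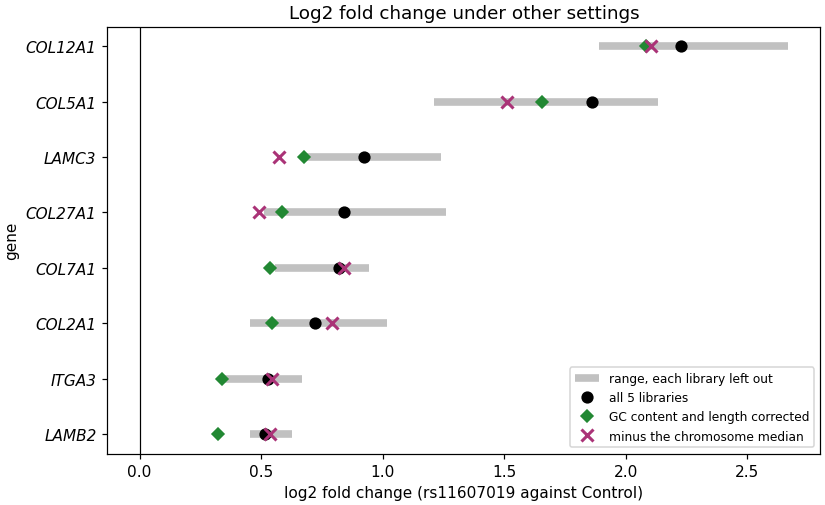
Log2 fold change of rs11607019 against Control (x) for the 8 chains with an unadjusted p under 0.05 (y): black for all 5 libraries, green with the G+C content and length correction, purple after subtracting the median of the chromosome, and grey bars for the range when each library was left out. All values of the 8 chains lie above 0, and the bar of COL12A1, 1.89 to 2.67, overlaps only that of COL5A1, 1.21 to 2.13. The groups of these chains did not overlap, so leaving out a library could hardly turn a direction.

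Direction turned in some of the other chains, which were not chosen by their p as those 8 were. Of the 49, 28 kept the sign of their log2 fold change in every alternative setting that gave them a value, 21 above 0 and 7 below. There were 14 such settings, or 13 for ITGB3, which a minimum of 10 counts in every library removed. The 28 were 12 of the 21 collagens, 6 of the 10 laminins, all above 0, and 10 of the 18 integrins. They include the 8 chains with an unadjusted p under 0.05. The share of all tested genes that kept their sign was not computed, so the count shows nothing particular to the chains.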

How the data were processed

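The deposited table holds whole-number read counts per gene that the authors made from single-end reads of 50 bases of strand-specific mRNA libraries, per the labels' protocols. HISAT2, SAMtools, HTSeq and the build hg38 are named in the submitters' processing notes, with no version; the annotation and whether counting used the strand are not given in the sources used here. The lowest count in any library is 3, so a gene silent in a library is not among these rows. Gene symbols came from a gene name table (16627) and GENCODE 29 (46 more).

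From the counts, filterByExpr kept 16310 genes (97.8%) and edgeR 4.0.16 (R 4.3.3) fitted all 5 libraries with TMM scaling and its robust quasi-likelihood test, two-sided, with Benjamini-Hochberg adjustment over all tested genes. The common biological coefficient of variation was 19.8%. CPM and RPKM are TMM-normalised; deviations use log2 CPM with a prior count of 2. Chromosome medians are over tested genes; for correlations, a minimum mean log2 CPM of 3 was set. The script was tested on simulated data.

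Alternatives were other scalings, filters, DESeq2 1.42.0, limma-voom (limma 3.58.1), omission of each library, a replicate block, a spline correction for G+C content and length (5 degrees of freedom) and subtraction of chromosome medians. Members and lists were chosen with earlier results of these data known. Named genes are COL12A1, chains with an unadjusted p under 0.05, the 5 most abundant per family, the 2 highest and 2 lowest fold changes per family with a mean CPM of at least 1, chains of common assemblies, and list genes with an unadjusted p under 0.05 or the highest level. COL9A3, COL14A1, COL16A1, LAMA2, LAMA3 and LAMB3 are outside that rule and were named after their values were seen. The values of 1 laminin chain are not reported here, though counts and medians over the laminins include it.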

Additional observations from a re-analysis of the deposited data

How the results depend on the processing

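With 2 and 3 libraries, a Control library carries much of each estimate, and LAMA2 and LAMB3 in particular rest on which Control is used. Low chains have wide intervals. Each of the chains with an unadjusted p under 0.05 kept its direction in the 14 alternatives. Their groups did not overlap, so leaving out a library could hardly turn a direction, and this is no test of it. At an adjusted p under 0.05 the count was 0, 2 with DESeq2 and 0 to 1 with each library left out, the 1 being COL12A1 without variant 3. At an unadjusted p under 0.05 the 8 chains became 4 with the G+C content and length correction (6.39% of all genes) and 6 to 11 with each library left out. Among all genes that share ran from 3.34%, without Control 1, to 10%, without variant 3. Those higher numbered 3 with the correction and 5 to 9 with each library left out. Those lower, 0 as fitted, numbered 1 with DESeq2, 1 with limma-voom, 1 with the correction and 0 to 2 with each library left out. The 14 chains without overlap became 16 to 32, where fewer libraries leave fewer values to overlap and the share of all genes was 34 to 56.9%. The cause of the other shifts was not tested.

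The log2 fold change of COL12A1 was 2.23 in DESeq2, with an adjusted p of 3.18e-12, and 1.89 to 2.67 with each library left out; over all alternatives its adjusted p lay between 3.18e-12 and 0.956. The collagen median was 0.0420 with the G+C and length correction, and 0.0656 to 0.263 with each library left out. The laminin median ran from 0.117 to 0.524 and the integrin median from -0.0122 to 0.134. With transcript length from the longest transcript, 4 of the 5 most abundant integrins stayed, ITGA7 taking the place of ITGA6, and COL4A2 and ITGB1 came first among the collagens and among all chains.

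Both groups have libraries numbered 1 and 2, but the labels give the numbers no meaning. Across 10864 genes the deviations from the group mean correlated at 0.154 for number 1 and -0.209 for number 2. With 2 Controls these deviations mirror each other, so each Control gives the other's values with the opposite sign. Control 2 and variant 3, of unequal numbers, correlated at 0.336. These values are no test of a pairing, and the numbers were treated as numbers only. A fit with the replicate block compares only the libraries numbered 1 and 2. Variant 3 has no Control of its number and adds nothing to the log2 fold change there. With this block, 12 chains had an unadjusted p under 0.05 (9.55% of all genes), 3 of them lower (4.1%), and the collagen median was 0.0763. The block turned the direction of COL18A1 (0.0488), COL1A1 (-0.0946), COL4A4 (0.0763), ITGA10 (-0.0828) and ITGAV (0.0158).

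Other turns of direction among the named chains came with further settings. With the G+C and length correction these were COL1A1 (-0.185), ITGA10 (-0.0590), ITGAV (0.0541) and LAMA4 (-0.0462). After subtracting the chromosome median they were COL18A1 (0.0703), COL4A4 (0.0552), COL6A1 (0.0200), ITGAV (0.106) and LAMA4 (-0.0815), and with limma-voom ITGA2 (-0.0157). With each library left out, the log2 fold change ran from -0.311 to 0.344 at COL18A1, -0.286 to 0.418 at COL1A1, -0.216 to 0.0698 at COL4A4, -0.146 to 0.00912 at COL6A1, -0.0843 to 0.1996 at ITGA10, -0.459 to 0.0753 at ITGA11 and -0.0883 to 0.180 at ITGA2. It ran from -0.315 to 0.121 at ITGAV, -0.0352 to 0.386 at ITGB5, -0.474 to 0.0998 at ITGB8 and -0.290 to 0.466 at LAMA4.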
